A study of Mus musculus with 25 samples.

Results

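The 10 genes described here encode the machinery that stores and senses transforming growth factor beta (TGF-β): the ligands Tgfb1, Tgfb2 and Tgfb3, the receptors Tgfbr1, Tgfbr2 and Tgfbr3, and the latent TGF-β binding proteins Ltbp1, Ltbp2, Ltbp3 and Ltbp4. They were chosen by name, with earlier results of these data known, and all 10 were found among the 35880 genes of the count table. RNA-Seq was performed on 25 pools of embryonic mouse mesenchyme, with 5 pools from each of 5 tissues: E16.5 fat pad precursor (E16.5 FP), E16.5 mammary mesenchyme (E16.5 MM), E13.5 mammary mesenchyme (E13.5 MM), E13.5 ventral skin mesenchyme (E13.5 VM) and mesenchyme of the E13.5 salivary gland (E13.5 SM). All embryos were C57Bl/6JOlaHsd mice with no transgene or treatment, the rudiments were freed of their epithelium with enzymes, and each pool joined a few embryos of a litter. The E16.5 embryos were female and no sex was given for E13.5, so that stage and sex cannot be told apart. The pools of a tissue came from fewer litters than pools and which pools shared a litter is not given, so that p-values measure the spread between these pools.

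TGF-β ligands are secreted as latent complexes. The pro-peptide stays wrapped around the mature ligand after cleavage by furin-like proteases, and a latent TGF-β binding protein ties this complex to fibrillin and fibronectin fibres until integrins or proteases free the ligand. The freed ligand binds the type II receptor Tgfbr2, which recruits and phosphorylates the type I receptor Tgfbr1, and Tgfbr1 in turn phosphorylates Smad2 and Smad3. Tgfbr3, or betaglycan, is a co-receptor that presents ligand, above all Tgfb2, to Tgfbr2. In the mouse mammary gland TGF-β is known as an inhibitor of ductal growth and branching.

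Tgfb1 (ENSMUSG00000002603) lies on the plus strand at chr7:25687002-25705077, Tgfb2 (ENSMUSG00000039239) on the minus strand at chr1:186622792-186705989 and Tgfb3 (ENSMUSG00000021253) on the minus strand at chr12:86056745-86079041, by GENCODE M21 on GRCm38. Among the receptors, Tgfbr1 (ENSMUSG00000007613) lies on the plus strand at chr4:47353222-47414931, Tgfbr2 (ENSMUSG00000032440) on the minus strand at chr9:116084293-116175360 and Tgfbr3 (ENSMUSG00000029287) on the minus strand at chr5:107106570-107289629. Ltbp1 (ENSMUSG00000001870) and Ltbp3 (ENSMUSG00000024940) lie on the plus strands of chr17:75005568-75392512 and chr19:5740904-5758532. Ltbp2 (ENSMUSG00000002020) and Ltbp4 (ENSMUSG00000040488) lie on the minus strands of chr12:84783212-84876532 and chr7:27305136-27337692. Tgfb3 overlaps Ttll5, a protein-coding gene on the other strand, and whether the counting used strand is not stated, so that reads in the overlap could have been given to either gene.

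The promoters of 8 of the 10 genes were found in the RefSeq table for GRCm38.p6, which holds 250 bases before and 50 bases after each start, and Tgfb3 and Tgfbr3 had no entry. The 4 printed here belong to the genes on which the results below turn. Ltbp2 had the widest range of levels, Tgfb2 was the ligand that led in E13.5 SM, and Ltbp1 and Tgfbr2 were both lowest in E13.5 SM. Capitals mark the motifs found, on either strand, at positions counted from the start as +1. The windows are chr12:84876442-84876741 for Ltbp2, chr1:186705940-186706239 for Tgfb2 and chr9:116175314-116175613 for Tgfbr2, all on the minus strand, and chr17:75005279-75005578 on the plus strand for the first of the Ltbp1 entries.
Ltbp2: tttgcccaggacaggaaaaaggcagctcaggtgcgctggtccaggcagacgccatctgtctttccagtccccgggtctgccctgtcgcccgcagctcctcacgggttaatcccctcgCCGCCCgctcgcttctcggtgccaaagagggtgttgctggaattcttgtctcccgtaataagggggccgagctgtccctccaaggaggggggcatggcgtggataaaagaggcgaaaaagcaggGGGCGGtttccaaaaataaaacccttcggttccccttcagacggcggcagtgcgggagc
Tgfb2: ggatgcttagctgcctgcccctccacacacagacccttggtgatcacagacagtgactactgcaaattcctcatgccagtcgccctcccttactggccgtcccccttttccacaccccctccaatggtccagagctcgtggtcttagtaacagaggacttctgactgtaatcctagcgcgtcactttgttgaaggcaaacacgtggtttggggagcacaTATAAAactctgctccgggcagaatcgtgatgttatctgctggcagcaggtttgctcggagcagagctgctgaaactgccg
Ltbp1: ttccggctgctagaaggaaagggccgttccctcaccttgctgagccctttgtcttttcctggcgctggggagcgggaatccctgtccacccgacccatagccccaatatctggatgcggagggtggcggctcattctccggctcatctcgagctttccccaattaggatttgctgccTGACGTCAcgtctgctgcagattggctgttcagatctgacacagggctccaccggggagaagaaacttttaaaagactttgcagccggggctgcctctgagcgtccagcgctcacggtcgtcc
Tgfbr2: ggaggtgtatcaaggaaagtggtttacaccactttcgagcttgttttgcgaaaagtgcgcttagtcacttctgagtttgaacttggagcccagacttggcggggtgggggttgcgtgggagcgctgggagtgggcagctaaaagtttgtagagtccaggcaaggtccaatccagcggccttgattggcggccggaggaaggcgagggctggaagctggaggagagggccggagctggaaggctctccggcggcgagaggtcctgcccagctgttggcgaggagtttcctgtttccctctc
Ltbp2 held GC boxes (GGGCGG) at -133 and -9, a motif found in 35.91% of the 27025 promoters of the table, and in the first entry of 4 of the 8 genes (Tgfb1, Tgfbr1, Ltbp2 and Ltbp4). Tgfb2 alone of the 8 held a TATA box (TATAAA), at -31, which 14.16% of promoters hold. Ltbp1 held the cyclic AMP response element TGACGTCA at -73, which 1.876% of promoters hold, and Ltbp3 was the only gene with the AP-1 motif TGANTCA, which 7.933% hold. Tgfbr2 held none of these letters, and the palindromic Smad element GTCTAGAC, present in 0.2109% of promoters, was in none of the 8. No match overlapped another motif. A match describes the letters and is not evidence of binding.

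Total counts per library were between 20678150 and 34448304, with a median of 26370369. Levels are given as normalized counts, the counts of a library scaled with TMM factors to the mean library size. All 10 genes passed the expression filter together with 17657 genes in all, and 7 contrasts between tissues were fitted by edgeR's quasi-likelihood test. A gene is called higher or lower below when its p-value, after Benjamini-Hochberg adjustment over all tested genes, was under 0.05, its log2 fold change was at least 0.58 in size and its mean exceeded 50 in the higher tissue. Comparisons with E13.5 SM share the same 5 libraries, and so do those with E13.5 MM, so that their values stand side by side and are not independent. In these pools, fewer cells of a type and less RNA per cell cannot be told apart. The 8 general mesenchyme markers were detected in every tissue, with summed levels of 21260 to 25600 CPM for E16.5 FP, 39790 to 44830 for E16.5 MM, 15230 to 19920 for E13.5 MM, 14180 to 17800 for E13.5 VM and 13130 to 15150 CPM for E13.5 SM.

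**Figure D1:**
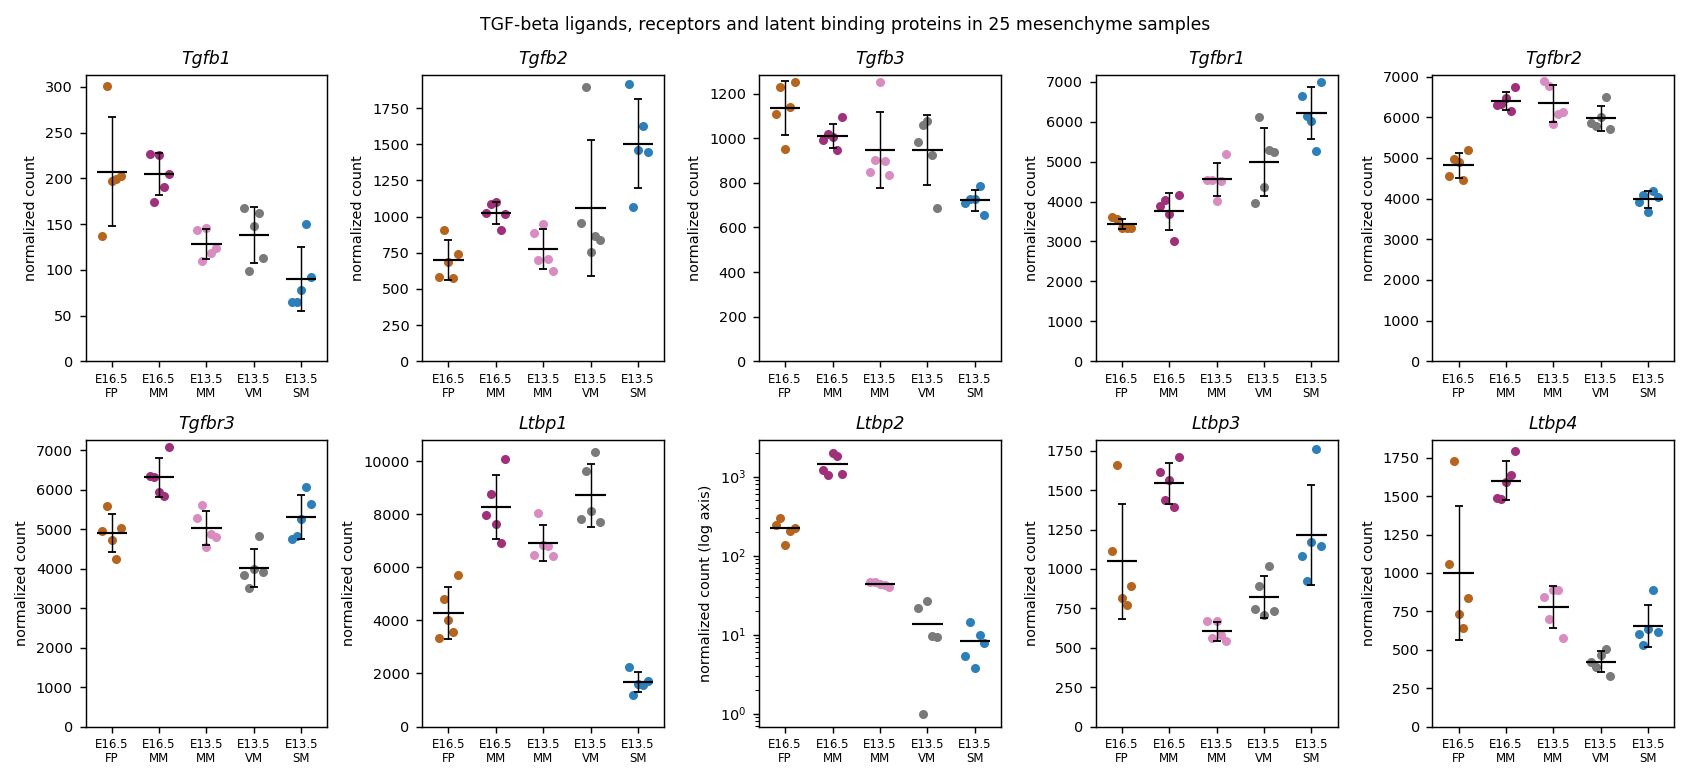
Normalized counts of the 10 genes in 25 samples, with 1 panel per gene and the tissues along the x axis. Points are samples in replicate order, black lines are means and bars are SD (n = 5); axes start at 0 except for Ltbp2, whose axis is logarithmic, shows no SD, and where the 5 E16.5 MM samples lie between 1051 and 2003, above every other sample.

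Ltbp2, a matrix protein that binds fibrillin-1 and, unlike its relatives, is not known to bind latent TGF-β, varied most of the 10 genes. Its 5 E16.5 FP samples had 247.5, 301.2, 138.2, 205.0 and 227.0 normalized counts, and the 5 E16.5 MM samples had 1224, 1051, 2003, 1842 and 1090. E13.5 MM had 46.3, 46.8, 43.9, 43.0 and 39.7, E13.5 VM had 21.5, 1.0, 26.7, 9.6 and 9.4, and E13.5 SM had 5.4, 14.4, 3.8, 9.9 and 7.9 normalized counts. The levels of E16.5 MM, E16.5 FP and E13.5 MM were stacked with no overlap, and all E13.5 MM samples lay above all E13.5 VM and E13.5 SM samples, which overlapped each other. E16.5 MM was 32.8-fold above E13.5 MM (log2 fold change 5.03 ± 0.33 SE, edgeR adjusted p = 1.686e-11) and 172-fold above E13.5 SM (7.42 ± 0.39, adjusted p = 6.827e-14). E16.5 FP was 6.42-fold below E16.5 MM (-2.68 ± 0.28, edgeR adjusted p = 8.095e-08) and 5.10-fold above E13.5 MM (2.35 ± 0.31, adjusted p = 7.184e-07), and its difference from E13.5 SM was 4.74 ± 0.38 (adjusted p = 1.211e-10).

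Among the E13.5 tissues, Ltbp2 in E13.5 MM was higher and differed from E13.5 VM by 1.65 ± 0.38 (edgeR adjusted p = 0.003264) and from E13.5 SM by 2.39 ± 0.41 on the log2 scale (adjusted p = 2.609e-05), but its E13.5 MM mean of 43.95 stayed under the minimum of 50 and neither was called. The E13.5 VM and E13.5 SM values rest on few reads, between 1 and 34 per library in E13.5 VM and between 4 and 15 for E13.5 SM, and the fold against them is correspondingly uncertain. E13.5 VM did not differ beyond its spread from E13.5 SM (0.74 ± 0.48, adjusted p = 0.1821). All of the 5 calls of Ltbp2 in the 7 comparisons held when any 1 library was left out.

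Ltbp1, which binds the latent forms of all 3 ligands and ties them to the matrix, separated the other tissues from the salivary gland mesenchyme. The samples had 3346, 4797, 4030, 3559 and 5724 normalized counts for E16.5 FP, 7986, 8745, 7623, 6899 and 10084 for E16.5 MM, 6458, 8054, 6827, 6819 and 6421 for E13.5 MM, 7821, 9608, 8108, 10342 and 7689 for E13.5 VM, and 2247, 1204, 1599, 1553 and 1731 for E13.5 SM. The highest E13.5 SM sample lay below every sample of the other tissues, and every E16.5 FP sample lay between E13.5 SM and the other 3 tissues. The log2 fold change over E13.5 SM was 1.36 ± 0.15 for E16.5 FP (edgeR adjusted p = 1.689e-08), 2.31 ± 0.15 for E16.5 MM (adjusted p = 2.343e-12) and 2.05 ± 0.15 for E13.5 MM (adjusted p = 2.536e-11). E16.5 FP was lower and differed from E16.5 MM by -0.95 ± 0.15 (edgeR adjusted p = 1.673e-05) and from E13.5 MM by -0.69 ± 0.15 on the log2 scale (adjusted p = 3.390e-04). The 3 highest tissues, E13.5 VM, E16.5 MM and E13.5 MM, overlapped and did not differ beyond their spread from their neighbours in this order (edgeR adjusted p = 0.6823 for E16.5 MM against E13.5 VM and 0.1486 for E16.5 MM against E13.5 MM).

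Ltbp3, which also binds all 3 latent ligands, had 1113, 1658, 816.9, 768.2 and 891.2 normalized counts for E16.5 FP, 1616, 1437, 1566, 1392 and 1710 for E16.5 MM, 667.4, 562.9, 669.6, 578.2 and 545.5 for E13.5 MM, 748.1, 892.1, 704.9, 1020 and 732.6 for E13.5 VM, and 1083, 924.6, 1169, 1759 and 1143 for E13.5 SM. E13.5 MM was the lowest tissue, with no sample in the range of any other tissue. E16.5 MM was 2.55-fold above E13.5 MM (log2 fold change 1.35 ± 0.18, edgeR adjusted p = 1.154e-06), and E13.5 MM was 2.01-fold below E13.5 SM (-1.01 ± 0.18, adjusted p = 2.791e-05). E16.5 FP was above E13.5 MM by 0.80 ± 0.18 (edgeR adjusted p = 5.113e-04), a call that was lost without E16.5 FP replicate 2, where the log2 fold change was 0.57. Conversely, E16.5 FP was not called against E16.5 MM (-0.56 ± 0.17, edgeR adjusted p = 0.01516) but passed without E16.5 FP replicate 2 (-0.80), E16.5 MM replicate 2 (-0.583) or E16.5 MM replicate 4 (-0.61).

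Ltbp4, known in mice for elastic fibre assembly and for binding latent Tgfb1, had 1060, 1727, 729.8, 638.8 and 835.2 normalized counts for E16.5 FP, 1490, 1484, 1595, 1640 and 1793 for E16.5 MM, 843.5, 697.6, 887.9, 890.4 and 578.1 for E13.5 MM, 420.3, 390.0, 467.3, 507.4 and 329.3 for E13.5 VM, and 600.4, 530.3, 637.6, 887.9 and 612.6 for E13.5 SM. It was the only member called between the neighbouring E13.5 MM and E13.5 VM, whose samples did not overlap, at 1.84-fold (log2 fold change 0.88 ± 0.20, edgeR adjusted p = 0.003368). E16.5 MM was 2.05-fold above E13.5 MM (1.04 ± 0.20, edgeR adjusted p = 1.696e-04) and 2.45-fold above E13.5 SM (1.29 ± 0.20, adjusted p = 6.269e-06), with no overlap in either case. These 3 calls held when any 1 library was left out.

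The Ltbp4 level in E16.5 FP depended on replicate 2, whose 1727 normalized counts stood above the other 4 E16.5 FP samples at 638.8 to 1060. E16.5 FP was called lower than E16.5 MM (-0.68 ± 0.20, edgeR adjusted p = 0.009988), although the samples overlapped. Without E16.5 FP replicate 4 the call was lost, at -0.55. E16.5 FP was also called higher than E13.5 SM (0.61 ± 0.20, edgeR adjusted p = 0.009408), a call lost at 0.32 without E16.5 FP replicate 2, at 0.578 without E13.5 SM replicate 1 and at 0.55 without E13.5 SM replicate 2. It was also lost without the expression filter (0.57, edgeR adjusted p = 0.03835).

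To compare levels between genes, CPM were divided by the length in kb of the longest coding transcript. On this scale the 4 Ltbp genes summed to 38.78 ± 9.16 CPM per kb for E16.5 FP, 76.42 ± 7.22 for E16.5 MM, 49.45 ± 4.48 for E13.5 MM, 57.58 ± 7.95 for E13.5 VM and 24.15 ± 4.23 for E13.5 SM (SD, n = 5). Every E16.5 MM sample, from 68.38 upwards, lay above every sample of E16.5 FP, E13.5 MM and E13.5 SM, while the highest E13.5 VM sample reached 68.61. Ltbp1 took 60.92% ± 8.44 of the sum in E16.5 FP, 60.35% ± 4.66 for E16.5 MM, 79.42% ± 2.77 for E13.5 MM, 84.56% ± 0.66 for E13.5 VM and 41.35% ± 7.12 for E13.5 SM. Ltbp3 took 38.41% ± 5.08 for E13.5 SM, close to the Ltbp1 share there, against 8.97% ± 1.07 for E13.5 MM and 10.2% ± 0.47 for E13.5 VM. The Ltbp2 share was 3.13% ± 0.66 for E16.5 FP and 10.6% ± 3.7 for E16.5 MM, and at most 0.543% in any E13.5 sample.

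**Figure D2:**
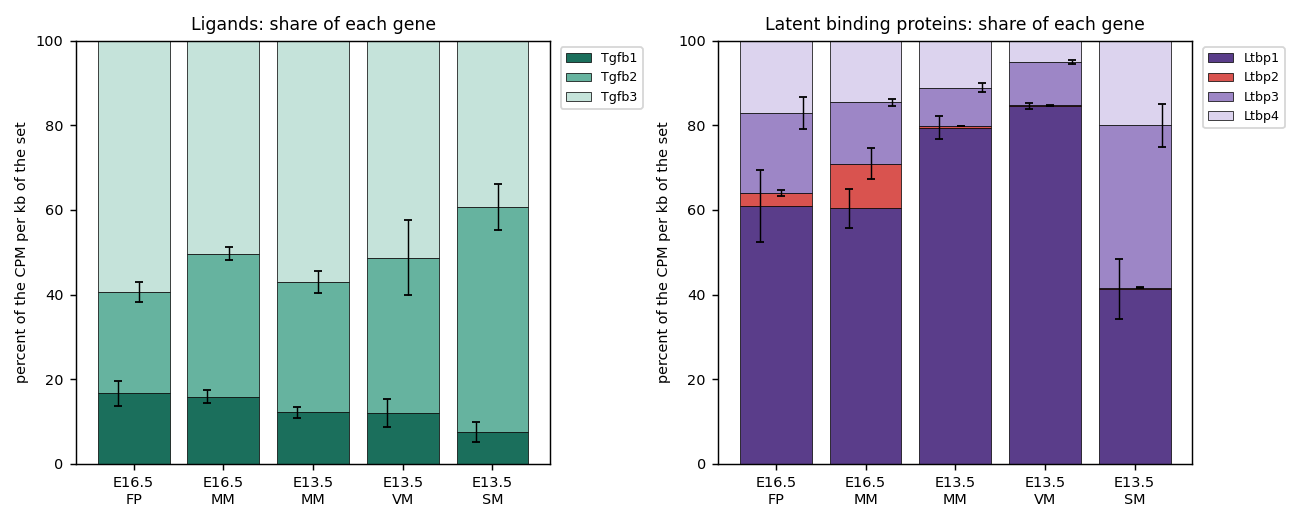
Mean share of each gene, in percent of the summed CPM per kb of its set, for the 3 ligands (left) and the 4 latent TGF-β binding proteins (right) in the 5 tissues on the x axis. Each error bar is the SD (n = 5) of the segment below it. Tgfb2 fills 53.21% of the E13.5 SM ligand column, and Ltbp1 fills 84.56% of the E13.5 VM column on the right.

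The summed level of the ligands overlapped between all 5 tissues, while their proportions differed. The sum was 20.69 ± 3.02 CPM per kb for E16.5 FP, 22.15 ± 1.41 for E16.5 MM, 18.61 ± 3.28 for E13.5 MM, 20.45 ± 3.97 for E13.5 VM and 21.82 ± 2.96 for E13.5 SM (SD, n = 5). Tgfb2 took 24.01% ± 2.43 of it in E16.5 FP, 33.79% ± 1.51 for E16.5 MM, 30.84% ± 2.61 for E13.5 MM, 36.74% ± 8.86 for E13.5 VM and 53.21% ± 5.41 for E13.5 SM. Tgfb3 had the largest mean share in the 4 tissues other than E13.5 SM, from 50.38% ± 1.73 for E16.5 MM to 59.38% ± 4.82 for E16.5 FP. Its share for E13.5 SM was 39.3% ± 4.98. Tgfb1 had the smallest mean share in every tissue, from 16.61% ± 2.96 for E16.5 FP to 7.49% ± 2.37 for E13.5 SM. With the union of all exons as the length these shares changed in size, the Tgfb1 share in E16.5 FP being 8.19% ± 1.63, but Tgfb2 still held the largest mean share in E13.5 SM at 52.5%, and Tgfb3 in the other 4 tissues.

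Tgfb2, a ligand with roles in epithelial-mesenchymal signalling in the embryo, was highest in E13.5 SM. The samples had 579.4, 910.5, 688.2, 578.7 and 744.4 normalized counts for E16.5 FP, 1024, 1084, 1100, 909.0 and 1014 for E16.5 MM, 888.7, 699.5, 950.3, 707.3 and 624.9 for E13.5 MM, 952.3, 1893, 751.9, 862.6 and 835.8 for E13.5 VM, and 1914, 1068, 1461, 1623 and 1446 for E13.5 SM. All E13.5 SM samples lay above all E16.5 FP and E13.5 MM samples, and replicate 2 of E13.5 VM stood apart at about the level of the highest E13.5 SM sample. E16.5 FP was 2.15-fold below E13.5 SM (log2 fold change -1.10 ± 0.20, edgeR adjusted p = 4.662e-05) and E13.5 MM was 1.94-fold below it (-0.96 ± 0.20, adjusted p = 2.704e-04). E16.5 MM was 1.46-fold below E13.5 SM (-0.55 ± 0.20, edgeR adjusted p = 0.01940), short of the fold required, and passed it at -0.64 without E13.5 SM replicate 2 and at -0.59 without the expression filter. E16.5 FP differed from E16.5 MM by -0.55 ± 0.20 (edgeR adjusted p = 0.03890) and was not called, but passed without E16.5 FP replicate 2 (-0.68) or E16.5 MM replicate 4 (-0.61).

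Tgfb3, the ligand best known from palate fusion and from the involuting mammary gland, had 1110, 1228, 949.8, 1138 and 1252 normalized counts for E16.5 FP, 992.2, 1019, 1004, 947.1 and 1093 for E16.5 MM, 850.3, 904.0, 1250, 895.9 and 836.7 for E13.5 MM, 984.5, 1059, 1075, 926.4 and 685.7 for E13.5 VM, and 711.5, 728.4, 725.1, 784.6 and 654.3 for E13.5 SM. Of the samples of the other tissues, E13.5 VM replicate 5 alone overlapped E13.5 SM. E16.5 FP was 1.58-fold above E13.5 SM and was called (log2 fold change 0.66 ± 0.11, edgeR adjusted p = 1.124e-05). The differences from E13.5 SM were smaller in E16.5 MM (0.49 ± 0.11, edgeR adjusted p = 4.372e-04) and E13.5 MM (0.39 ± 0.11, adjusted p = 0.003425), below the fold required. E16.5 FP, E16.5 MM, E13.5 MM and E13.5 VM, in this order of means, did not differ beyond their spread from one neighbour to the next. Across more than 1 step, E16.5 FP was above E13.5 MM by 0.26 ± 0.11 (edgeR adjusted p = 0.04845) and above E13.5 VM by 0.26 ± 0.11 (adjusted p = 0.04548). Both were below the fold required.

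Tgfb1, widely made by blood and endothelial cells as well as by mesenchyme, was the least abundant ligand and higher at E16.5. It had 136.5, 301.2, 197.2, 199.8 and 202.7 normalized counts for E16.5 FP, 226.9, 173.6, 225.8, 190.6 and 205.3 for E16.5 MM, 143.4, 109.9, 146.2, 118.1 and 123.6 for E13.5 MM, 167.7, 98.5, 147.4, 161.8 and 112.6 for E13.5 VM, and 64.5, 65.1, 77.9, 150.1 and 92.3 for E13.5 SM. All E16.5 MM samples lay above all E13.5 samples. E16.5 FP replicate 1 was the exception at E16.5, and E13.5 SM replicate 4 had about the level of the E13.5 skin tissues. E16.5 MM was 1.60-fold above E13.5 MM (log2 fold change 0.67 ± 0.21, edgeR adjusted p = 0.01029) and 2.27-fold above E13.5 SM (1.18 ± 0.21, adjusted p = 3.204e-05). E16.5 FP was 2.31-fold above E13.5 SM (1.205 ± 0.214, edgeR adjusted p = 2.142e-05) and 1.62-fold above E13.5 MM (0.70 ± 0.21, adjusted p = 0.007154). The difference from E13.5 MM fell under the required fold, at 0.52, without E16.5 FP replicate 2. E13.5 MM was not called against E13.5 SM (0.51 ± 0.21, edgeR adjusted p = 0.04233) but passed at 0.77 without E13.5 SM replicate 4.

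Like the Tgfb1 means, the summed markers of leukocytes, endothelium and platelets had their lowest medians in E13.5 SM and their highest at E16.5. The 6 leukocyte markers summed to 445.2 to 588.0 CPM for E16.5 FP, 407.0 to 490.2 for E16.5 MM, 254.8 to 297.4 for E13.5 MM, 232.4 to 279.8 for E13.5 VM and 55.68 to 71.19 for E13.5 SM, and 6 of 6 were called higher in each of E16.5 FP, E16.5 MM and E13.5 MM than E13.5 SM. The 6 endothelial markers summed to 869.0 to 1125 CPM for E16.5 FP, 709.0 to 897.0 for E16.5 MM, 573.0 to 712.1 for E13.5 MM, 540.4 to 616.2 for E13.5 VM and 410.7 to 505.0 for E13.5 SM. The 5 platelet and megakaryocyte markers summed to 42.34 to 48.05 CPM for E16.5 FP, 42.83 to 57.71 for E16.5 MM, 25.02 to 27.68 for E13.5 MM, 17.50 to 26.03 for E13.5 VM and 8.132 to 10.85 CPM for E13.5 SM. The platelet and megakaryocyte markers did not move together. Relative to E13.5 SM, 2 of 5 were called higher and 1 lower for E16.5 MM, and 1 higher and 1 lower for E16.5 FP. The comparison of E16.5 MM with E13.5 MM also gave 1 higher and 1 lower. Pf4 had means of 1089 normalized counts for E16.5 FP, 1078 for E16.5 MM and 73.3 for E13.5 SM. Ppbp ran the other way, at 26.7, 31.4 and 62.8 in the same order. Single libraries did not always follow the order of the tissues. E13.5 SM replicate 4, highest of its tissue in Tgfb1 at 150.1 normalized counts, had the lowest leukocyte sum there, 55.68 CPM. No marker of these lists was at 0 in a tissue, and their part in the Tgfb1 differences was not tested.

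For the receptors, the highest and the lowest tissue mean differed by 1.81-fold in Tgfbr1, 1.61-fold in Tgfbr2 and 1.57-fold in Tgfbr3. Tgfbr1, the signalling type I receptor, had 3602, 3557, 3332, 3350 and 3334 normalized counts for E16.5 FP, 3891, 4046, 3677, 3008 and 4177 for E16.5 MM, 4541, 4544, 4014, 4523 and 5188 for E13.5 MM, 3956, 6112, 4370, 5301 and 5246 for E13.5 VM, and 6638, 6136, 6015, 5278 and 6984 for E13.5 SM. Every E13.5 SM sample lay above every sample of E16.5 FP, E16.5 MM and E13.5 MM. The log2 fold change against E13.5 SM was -0.85 ± 0.10 for E16.5 FP (edgeR adjusted p = 5.477e-08) and -0.72 ± 0.10 for E16.5 MM (adjusted p = 9.177e-07), both called, and -0.44 ± 0.10 for E13.5 MM (adjusted p = 4.977e-04), which was not. Neighbours in the order of levels, from E13.5 SM through E13.5 VM, E13.5 MM and E16.5 MM to E16.5 FP, overlapped at every step.

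Where Tgfbr1 was highest, in E13.5 SM, Tgfbr2, the ligand-binding type II receptor, was lowest. It had 4563, 4962, 4900, 4456 and 5205 normalized counts for E16.5 FP, 6302, 6337, 6472, 6141 and 6748 for E16.5 MM, 6888, 6775, 5845, 6073 and 6138 for E13.5 MM, 5849, 5789, 6001, 6496 and 5722 for E13.5 VM, and 3926, 4092, 3662, 4180 and 4041 for E13.5 SM. E13.5 SM was lowest, E16.5 FP lay apart above it, and the other 3 tissues overlapped above both. The log2 fold change over E13.5 SM was 0.69 ± 0.06 for E16.5 MM (edgeR adjusted p = 2.164e-10) and 0.67 ± 0.06 for E13.5 MM (adjusted p = 3.841e-10), both called, and 0.28 ± 0.06 for E16.5 FP (adjusted p = 2.077e-04), below the fold required. E16.5 FP was below both mammary mesenchymes and differed from E16.5 MM by -0.41 ± 0.06 (edgeR adjusted p = 4.905e-06) and from E13.5 MM by -0.40 ± 0.06 (adjusted p = 3.048e-06), with no overlap, but neither reached 0.58. Tgfbr1 was likewise lower in E16.5 FP than E13.5 MM, with no overlap (-0.41 ± 0.10, edgeR adjusted p = 0.001398), and was not called. Of the summed CPM per kb of the 3 receptors, Tgfbr2 took 29.81% ± 1.43 for E16.5 FP, 31.96% ± 1.43 for E16.5 MM, 32.64% ± 1.16 for E13.5 MM, 32.68% ± 2.15 for E13.5 VM and 20.16% ± 1.15 for E13.5 SM (SD, n = 5). The Tgfbr1 share was 29.92% ± 1.53 for E16.5 FP, 26.26% ± 1.73 for E16.5 MM, 33.01% ± 2.33 for E13.5 MM, 38.18% ± 4.57 for E13.5 VM and 44.14% ± 3.81 for E13.5 SM.

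Tgfbr3 was called in none of the 7 comparisons. Its samples had 4957, 5583, 4723, 4253 and 5020 normalized counts for E16.5 FP, 6343, 6322, 5948, 5842 and 7083 for E16.5 MM, 5286, 5608, 4536, 4881 and 4811 for E13.5 MM, 3831, 3516, 3993, 4816 and 3922 for E13.5 VM, and 4748, 4822, 5257, 6074 and 5647 for E13.5 SM. E16.5 MM nonetheless lay above E13.5 MM and above E16.5 FP with no overlap. The log2 fold change was 0.33 ± 0.09 for E16.5 MM against E13.5 MM (edgeR adjusted p = 0.003213) and -0.36 ± 0.09 for E16.5 FP against E16.5 MM (adjusted p = 0.001956). E13.5 MM differed from E13.5 VM by 0.32 ± 0.09 (edgeR adjusted p = 0.01129), with overlap. Outside the 7 comparisons, Tgfbr3 was called higher in E16.5 MM than E13.5 VM, with no overlap (0.65 ± 0.09, edgeR adjusted p = 8.241e-07).

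By comparison, the counts of called members stood as follows beside the share of all tested genes. In E16.5 FP against E13.5 SM, 5 of 10 members were higher (20.2% of all genes) and 2 were lower (19.3%), and the median log2 fold change was 0.44 over the members and 0.03 over all genes. In E16.5 MM against E13.5 SM, 5 were higher (18.5% of all genes) and 1 was lower (16.6%), with medians of 0.59 and -0.01. In E13.5 MM against E13.5 SM, Tgfbr2 and Ltbp1 were higher (14.5% of all genes) and Tgfb2 and Ltbp3 lower (15.6%), with medians of 0.32 and 0.03.

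In E16.5 MM against E13.5 MM, Tgfb1, Ltbp2, Ltbp3 and Ltbp4 were higher (12.6% of all genes) and 0 of 10 members were lower (7.16%), with medians of 0.37 and 0.01. Tgfbr1 was the 1 member that ran lower at an unadjusted p under 0.05 in the edgeR test (log2 fold change -0.28 ± 0.10, adjusted p = 0.02539), and DESeq2 also called 0 lower. In E16.5 FP against E13.5 MM, Tgfb1, Ltbp2 and Ltbp3 were higher (14.3% of all genes) and Ltbp1 lower (11.2%), and this count of 4 dropped to 2 without E16.5 FP replicate 2. The medians there were 0.11 and 0.03. In E16.5 FP against E16.5 MM, 0 of 10 members were higher (6.78% of all genes) and Ltbp1, Ltbp2 and Ltbp4 were lower (7.34%), with medians of -0.48 and 0.00. At an unadjusted p under 0.05 edgeR gave 0 higher and 7 lower members, and DESeq2 called 0 higher and 3 lower. The count of 3 was 5 without E16.5 FP replicate 2 or without E16.5 MM replicate 4, and 2 without E16.5 FP replicate 4. In E13.5 MM against E13.5 VM, Ltbp4 alone was higher (3.79% of all genes) and 0 of 10 were lower (2.66%), with medians of -0.05 and -0.01. At an unadjusted p under 0.05 edgeR gave 3 higher and 3 lower members there, and DESeq2 called 1 and 0. Since 1 member is 10% of the list, a count of 1 or 2 cannot be read as differing from these shares. In the 3 further comparisons used to order the levels, 4 members were called between E13.5 VM and E13.5 SM (30.2% of all genes), 4 between E16.5 MM and E13.5 VM (23.3%) and 5 between E16.5 FP and E13.5 VM (27.4%), in either direction.

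**Figure D3:**
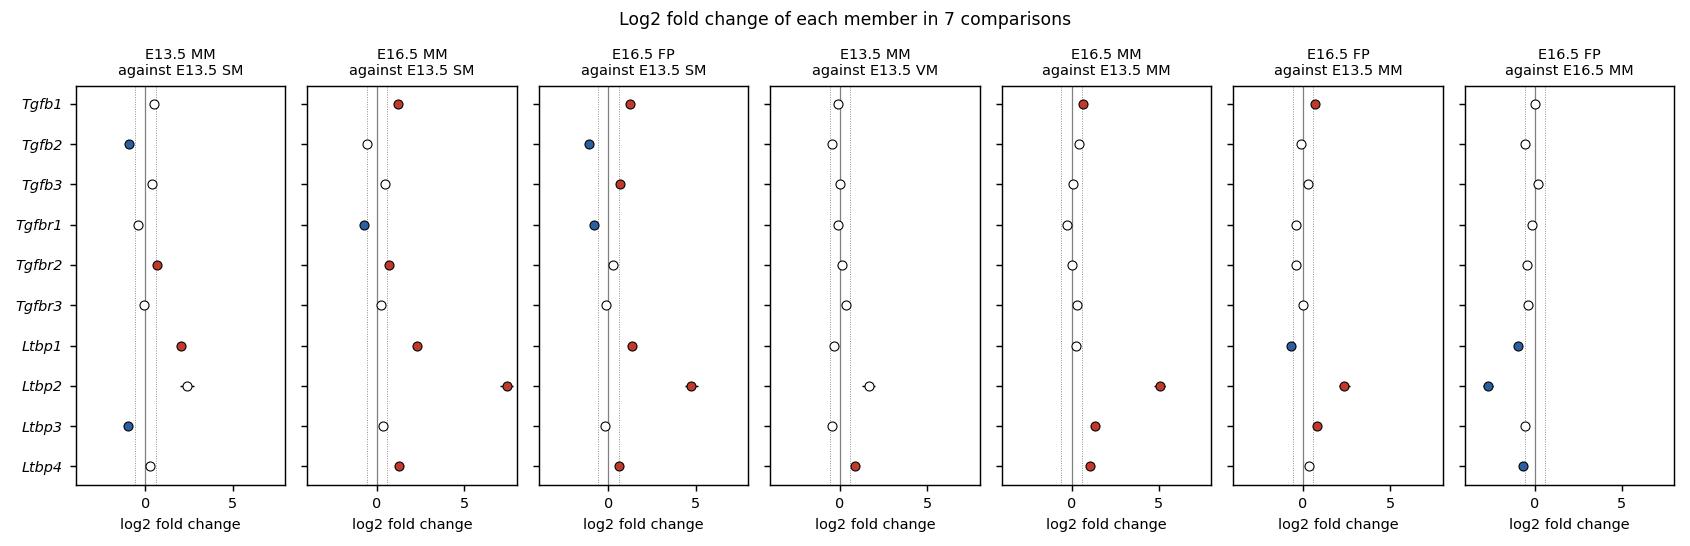
Log2 fold change of each gene in the 7 comparisons, 1 panel each, with bars of 1 SE, many of them hidden by the points. Red points were called higher, blue points called lower and white points not called, and dotted lines mark a log2 fold change of 0.58 in either direction. Ltbp2 reaches 7.42 for E16.5 MM against E13.5 SM and -2.68 for E16.5 FP against E16.5 MM.

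The E16.5 FP pools also carried skeletal muscle RNA. Their 10 skeletal muscle markers summed to 826.1 to 8683 CPM, against 292.2 to 1213 CPM for E16.5 MM, and 10 of 10 were called higher. The 5 adipocyte markers are among those that the authors name for the fat pad precursor itself. They summed to 652.7 to 1325 CPM for E16.5 FP, against 89.46 to 183.9 CPM for E16.5 MM. The mesenchyme markers ran the other way, 6 of 8 being called lower in E16.5 FP than E16.5 MM. E13.5 SM carried 285.1 to 360.8 CPM of 5 peripheral neuron markers, whose highest sum in any E16.5 MM, E13.5 MM, E13.5 VM or E16.5 FP library was 20.36 CPM. Other cells also moved with stage in the mammary mesenchyme, where Tgfb1, Ltbp2, Ltbp3 and Ltbp4 were higher at E16.5. The 6 epithelial markers summed to 12.37 to 93.45 CPM for E16.5 MM against 3.464 to 13.31 for E13.5 MM, and 6 of 6 were called higher. The 5 adipocyte markers summed to 89.46 to 183.9 CPM for E16.5 MM against 11.29 to 13.73 for E13.5 MM, with 5 of 5 called higher, and the 10 muscle markers to 292.2 to 1213 CPM against 58.44 to 226.9, with 7 called higher and 1 lower. Of the 6 leukocyte markers, 5 were called higher there. When E16.5 FP was set against E13.5 MM, 9 of 10 muscle, 5 of 5 adipocyte and 5 of 6 leukocyte markers were called higher, and 1 of 6 epithelial markers was higher and 1 lower. In the same comparison 4 of 6 endothelial markers were higher and 3 of 5 peripheral neuron markers lower. Of the 4 Schwann cell markers 1 was higher and 3 lower, and of the 8 mesenchyme markers 2 were higher and 3 lower. Adipoq was at 0 in E13.5 SM, and no epithelial or muscle marker was at 0 in a tissue. The part of these cells in the values of the 10 genes was not tested.

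The samples of a tissue also differed in how GC-rich transcripts fared against GC-poor ones. The transcripts of the 10 genes run from 41.0% GC in Tgfbr1 to 62.5% in Tgfb1, with Ltbp4 at 62.2% and Ltbp3 at 61.5%. The GC tilt of a library, on the log2 scale the deviation of its most GC-rich genes from its most GC-poor genes (57.92% GC or more against 40.9% or less) relative to the tissue mean, was highest in its tissue in E16.5 FP replicate 2 (0.16) and E13.5 SM replicate 4 (0.23). These libraries were also the highest of their tissue in Tgfb1, Ltbp3 and Ltbp4, but not in these genes alone. E16.5 FP replicate 2 was also highest in Tgfb2 (46.9% GC), Tgfbr3 (48.6%) and Ltbp2. It lay above the mean of its tissue in all 10 genes. E13.5 SM replicate 4 was also highest in Tgfb3, Tgfbr2 and Tgfbr3, and lowest of its tissue in Tgfbr1, the most GC-poor of the 10 genes. The deviation of each gene from its tissue means was set against the tilt over all 25 samples. Pearson's r was 0.62 for Ltbp4, 0.48 for Tgfb1, 0.47 for Ltbp2, 0.39 for Ltbp3 and 0.37 for Tgfb3. It was 0.36 for Tgfbr3, 0.29 for Tgfbr2, -0.11 for Tgfb2, -0.13 for Ltbp1 and -0.49 for Tgfbr1. In E16.5 MM, E13.5 MM and E13.5 VM, the library with the highest tilt was not the highest in Tgfb1. The same library was highest in Ltbp3 and Ltbp4 in 4 of 5 tissues, and the library with the highest Ltbp4 had the highest tilt in 4 of 5. With a GC-dependent offset for each library, chosen after the data were seen, Ltbp3 and Ltbp4 kept their calls in all 7 comparisons and Tgfb1 passed in E13.5 MM against E13.5 SM as well (0.62), and so did Tgfb2 when E16.5 FP was set against E16.5 MM (-0.60). The source of the tilt was not tested.

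**Figure D4:**
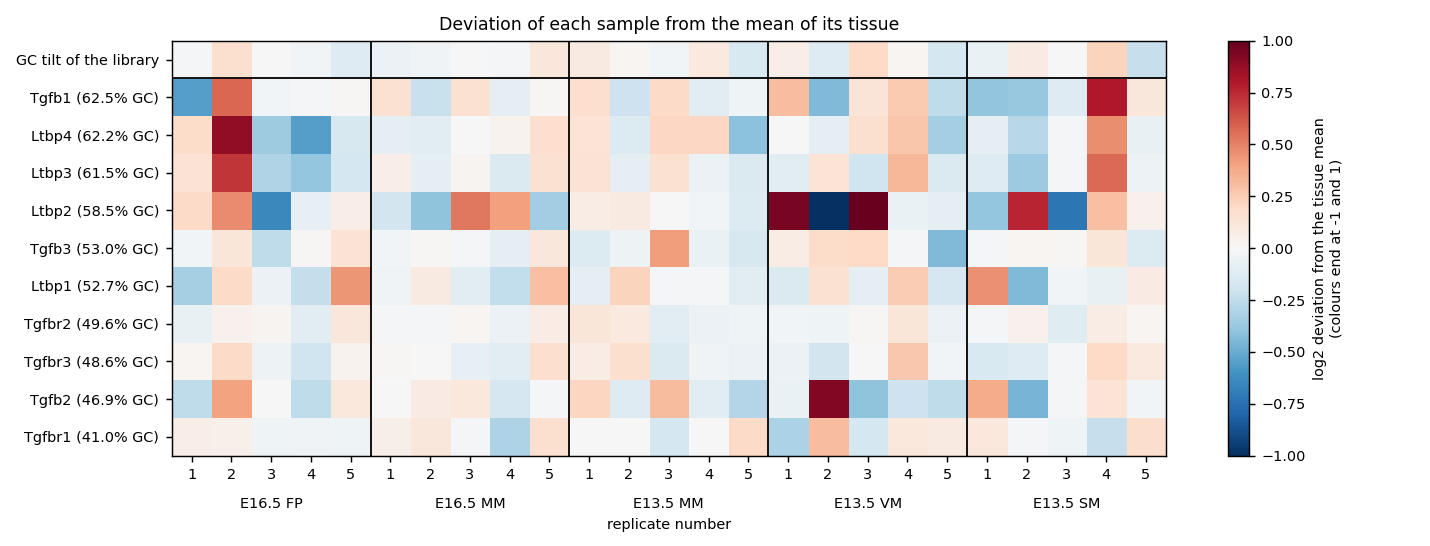
Log2 deviation of each sample from the mean of its tissue for the 10 genes, ordered by the GC content of the transcript, with the GC tilt of each library in the top row. Columns are replicates, grouped by tissue. E16.5 FP replicate 2 and E13.5 SM replicate 4, with tilts of 0.16 and 0.23, are red in Tgfb1, Ltbp3 and Ltbp4. E16.5 FP replicate 2 lies above its tissue mean in all 10 genes.

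The other genes of the pathway were read from a list of 44 genes in 7 roles, all of which were tested. In E16.5 MM against E13.5 MM, 17 of 44 were higher (12.6% of all genes were) and 3 were lower (7.16%), and the median log2 fold change was 0.41, against 0.01 over all genes. In E16.5 FP against E16.5 MM, 3 were higher (6.78% of all genes) and 11 were lower (7.34%), with a median of -0.29 against 0.00. Set against E13.5 SM, E16.5 FP had 15 called higher (20.2% of all genes) and 15 called lower (19.3%), E16.5 MM had 19 called higher (18.5%) and 7 called lower (16.6%), and E13.5 MM had 12 called higher (14.5%) and 11 called lower (15.6%). Set against E13.5 MM, E16.5 FP had 14 called higher (14.3%) and 8 called lower (11.2%). Between E13.5 MM and E13.5 VM, 2 were called higher (3.79%) and 2 called lower (2.66%) in E13.5 MM, near the share of all genes.

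Among the 8 genes of display and activation of latent TGF-β, Lrrc32 and Itgb8 had the largest fold changes of E13.5 MM and of E13.5 VM over E13.5 SM. Lrrc32, which holds latent TGF-β on the cell surface, had a mean of 313.9 ± 33.5 normalized counts for E16.5 FP, 608.3 ± 140.7 for E16.5 MM, 1656 ± 244 for E13.5 MM, 2595 ± 283 for E13.5 VM and 180.9 ± 10.1 for E13.5 SM (SD, n = 5). Itgb8, the integrin subunit that activates ligand together with Itgav, had 388.9 ± 116.0 for E16.5 FP, 206.9 ± 65.5 for E16.5 MM, 95.0 ± 10.3 for E13.5 MM, 110.9 ± 45.6 for E13.5 VM and 1782 ± 123 for E13.5 SM. Lrrc32 was thus higher in E13.5 MM than E13.5 SM (log2 fold change 3.19 ± 0.13, edgeR adjusted p = 1.785e-16) and Itgb8 lower (-4.23 ± 0.26, adjusted p = 1.263e-12). Lrrc32 was also lower in E13.5 MM than E13.5 VM (-0.65 ± 0.12, edgeR adjusted p = 2.344e-04) and lower in E16.5 FP than E13.5 MM (-2.40 ± 0.13, adjusted p = 2.879e-14). Itgb5, a partner of Itgav, was lower in E16.5 FP than E16.5 MM at 1933 ± 267 against 4268 ± 537 normalized counts (-1.14 ± 0.10, edgeR adjusted p = 1.156e-09). Itgb3, another partner, was higher in E16.5 FP than E13.5 MM at 1652 ± 254 against 520.9 ± 20.9 (1.66 ± 0.09, edgeR adjusted p = 1.273e-13).

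The 3 proteoglycans that bind TGF-β, Fmod, Dcn and Bgn, all had their highest mean in E16.5 MM (Bgn is named to complete the list). All 3 were called higher when E16.5 MM was set against E13.5 MM and lower when E16.5 FP was set against E16.5 MM. Fmod had 106.9 ± 28.7 normalized counts for E16.5 FP, 702.0 ± 186.1 for E16.5 MM, 202.4 ± 65.9 for E13.5 MM, 330.2 ± 160.1 for E13.5 VM and 1.3 ± 0.8 for E13.5 SM (SD, n = 5). Dcn had 25190 ± 2653 for E13.5 MM against 12800 ± 3792 for E13.5 VM (log2 fold change 0.98 ± 0.16, edgeR adjusted p = 1.086e-04). Thbs1, whose protein can free latent TGF-β, had 7992 ± 1088 normalized counts for E13.5 MM against 3644 ± 129 for E13.5 VM (1.13 ± 0.09, edgeR adjusted p = 1.055e-09).

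Of the 8 response genes, matrix and contractile genes that TGF-β is known to raise in fibroblasts, 6 were higher for E16.5 MM against E13.5 MM (12.6% of all genes were), and 7 were higher for E16.5 MM against E13.5 SM (18.5%). None was lower in these comparisons, by edgeR call or at an unadjusted p under 0.05. E13.5 MM against E13.5 SM gave 5 higher (14.5%) and 1 lower (15.6%), and E16.5 FP against E16.5 MM gave 1 higher (6.78%) and 2 lower (7.34%). For E13.5 MM against E13.5 VM, 0 were called higher (3.79%) and 1 lower (2.66%), and edgeR gave 1 higher and 5 lower at an unadjusted p under 0.05. E16.5 FP had 5 higher (14.3%) and 0 lower (11.2%) against E13.5 MM, and 6 higher (20.2%) and 0 lower (19.3%) against E13.5 SM. Tgfbi had 3687 ± 649 normalized counts for E16.5 MM against 599.4 ± 113.7 for E13.5 MM (2.62 ± 0.27 on the log2 scale, edgeR adjusted p = 7.389e-08), and 790.3 ± 85.2 for E16.5 FP against 3687 ± 649 for E16.5 MM (-2.22 ± 0.27, adjusted p = 9.468e-07). Its means for E13.5 VM and E13.5 SM, 1137 ± 615 and 966.1 ± 320.4, lay above that of E13.5 MM. Postn, which was high in both E16.5 tissues, had 130700 ± 7155 for E16.5 FP, 153200 ± 13270 for E16.5 MM, 37040 ± 5533 for E13.5 MM, 25480 ± 14390 for E13.5 VM and 19730 ± 4063 for E13.5 SM. Col1a1 had 49890 ± 23750 for E16.5 FP, 131300 ± 13850 for E16.5 MM, 28660 ± 6208 for E13.5 MM, 41200 ± 9633 for E13.5 VM and 12490 ± 2795 for E13.5 SM. Tagln and Acta2, genes of the contractile apparatus, were higher in E16.5 FP than E13.5 SM, at 1365 ± 615 against 101.1 ± 25.6 normalized counts for Tagln (log2 fold change 3.75 ± 0.30, edgeR adjusted p = 1.945e-10) and 4556 ± 1275 against 594.9 ± 226.9 for Acta2 (2.94 ± 0.23, adjusted p = 1.213e-10). Many of these genes are also general markers of maturing connective tissue or muscle, and Col1a1 is also in the mesenchyme marker list. Of the 5 Smad signalling genes, 3 were lower in E16.5 FP than E13.5 SM (19.3% of all genes were), and 2 were lower in E16.5 MM than E13.5 SM (16.6%). In E16.5 MM against E13.5 MM edgeR called 0 of the 5, with 0 higher and 2 lower at an unadjusted p under 0.05. Of the 9 inhibitors and feedback genes, 0 were called higher (12.6% of all genes) and 1 lower (7.16%) in that comparison, and 4 ran higher and 2 lower at an unadjusted p under 0.05. E16.5 FP against E16.5 MM gave 0 higher (6.78%) and 2 lower (7.34%), with 0 and 8 at an unadjusted p under 0.05. Set against E13.5 SM, E16.5 FP had 1 higher (20.2%) and 4 lower (19.3%), and E16.5 MM had 2 higher (18.5%) and 1 lower (16.6%). E13.5 MM had 1 higher (14.5%) and 2 lower (15.6%) against E13.5 SM. Counts of calls this small cannot be read as differing from these shares.

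**Figure D5:**
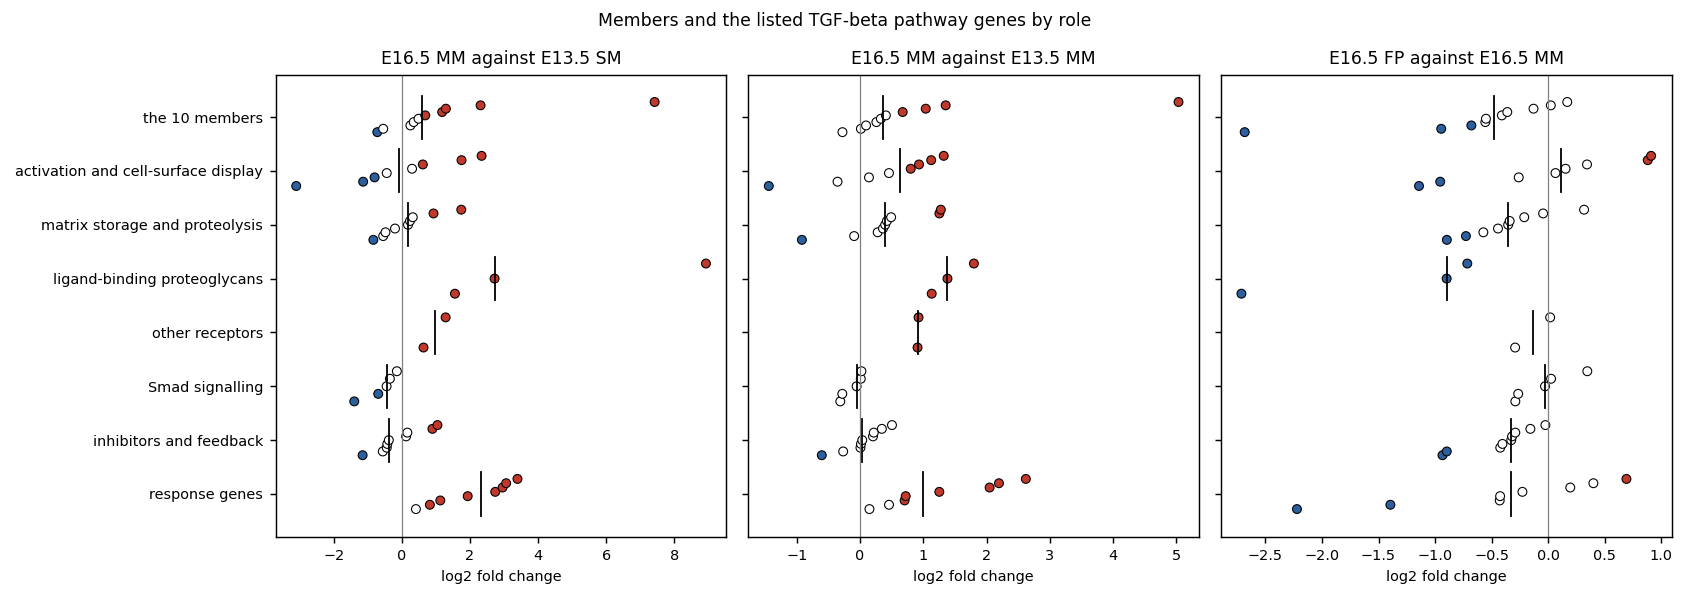
Log2 fold change of the 10 genes and of the 44 further pathway genes by role, in 3 comparisons. Each point is a gene, red if called higher, blue if called lower and white if not called, and the vertical bar is the median of the row. The medians of the 10 members are 0.59, 0.37 and -0.48 from left to right, and the x axes differ in range.

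For each of the 10 genes, the most similar genes were looked for among 12668 tested genes with a mean of at least 100 normalized counts, by Pearson's r of log2 CPM over the 25 samples. These samples share tissues and libraries, so that r describes mostly the differences between tissues. The closest were B3gnt9 (0.968) and Gm14226 (0.956) for Tgfbr2, Trove2 (0.967) and Ranbp6 (0.966) for Tgfbr1, and Cped1 (0.961) and Wwtr1 (0.957) for Ltbp1. For Ltbp2 they were Ephx1 (0.952) and A4galt (0.9496), for Ltbp3 Aebp1 (0.949) and Akap13 (0.939), and for Ltbp4 Hif3a (0.941) and Mmp14 (0.902). The ligands and Tgfbr3 had looser matches, which were Arhgef15 (0.899) and Elmo1 (0.888) for Tgfb1, Dock1 (0.842) and Zcchc12 (0.838) for Tgfb2, Fig4 (0.846) and Apoe (0.830) for Tgfb3, and Stx2 (0.882) and Cbx6 (0.865) for Tgfbr3. Of these, A4galt shares the order of tissues with Ltbp2 over a narrower range. Its means were 187.6 normalized counts for E16.5 FP, 315.4 for E16.5 MM, 84.98 for E13.5 MM, 28.78 for E13.5 VM and 18.87 for E13.5 SM.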

How the data were processed

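RNA-Seq values were the estimated counts per gene deposited by the authors. Their methods give FastQC 0.11.8, MultiQC 1.9, Trimmomatic 0.39 and Salmon 0.99.0 on mm10 after removal of ribosomal reads, and DESeq2 3.15 for their own calls. The annotation release and the use of strand are not given in the sources used here, and Salmon splits reads among transcripts with shared sequence. The deposited estimated counts were whole numbers. GENCODE M21 gave no symbol for 446 of 35880 genes (0.1026% of the counts). No 2 libraries were identical.

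Genes passing filterByExpr entered edgeR's quasi-likelihood test (edgeR 4.0.16, R 4.3.3), using TMM factors, robust dispersion, 1 mean per tissue and no covariate (20 residual degrees of freedom, common dispersion 0.0433). SE was taken as |log2 fold change| over the square root of F. The steps were tested on simulated data. Levels per kb used GENCODE M21 lengths. Members, pathway and marker lists were chosen with earlier results of these data known. Named were all 10 members, up to 4 called pathway genes per comparison with the largest fold and no overlap of samples (fewer where already described), and 2 similar genes per member. Alternatives were DESeq2 1.42.0, its size factors, no filter, a mean over both tissues, only the tissues compared, a replicate block, each library left out and, chosen after seeing the data, a GC offset. One overlap between annotated genes is not reported here.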

Additional observations from a re-analysis of the deposited data

Results flagged for a closer look

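Of the 50 groups of 5 samples (10 genes in 5 tissues), 3 held a sample far from the other 4, its gap to the nearest exceeding 0.71 of the range of the group, where chance alone gives about 1 in 20 groups. Tgfb2 was 1893.1 normalized counts in E13.5 VM replicate 2, against 751.9 to 952.3 in the other 4 samples of the tissue. Tgfb3 was 1249.5 in E13.5 MM replicate 3, against 836.7 to 904.0 in the others. Ltbp1 was 8054.2 in E13.5 MM replicate 2, against 6421.0 to 6827.2 in the others.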

How the results depend on the processing

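Leaving out each library in turn gave 4 to 5 called members in E13.5 MM against E13.5 SM, 6 to 7 in E16.5 MM against E13.5 SM, 6 to 7 in E16.5 FP against E13.5 SM, 1 in E13.5 MM against E13.5 VM, 4 in E16.5 MM against E13.5 MM, 2 to 4 in E16.5 FP against E13.5 MM (2 without E16.5 FP replicate 2), 2 to 5 in E16.5 FP against E16.5 MM, 2 to 6 in E13.5 VM against E13.5 SM (2 without E13.5 SM replicate 3), 3 to 6 in E16.5 FP against E13.5 VM (3 without E13.5 VM replicate 2) and 4 to 5 in E16.5 MM against E13.5 VM. Every other alternative kept the count of called members within 1.5 times, and all counts over all genes stayed within 1.5 times under every alternative run. The values that changed sign were uncalled differences. With the GC offset, Tgfb1 was 0.0237 in E13.5 MM against E13.5 VM, Tgfbr3 0.0568 in E16.5 FP against E13.5 MM and Ltbp3 0.0327 in E16.5 FP against E13.5 SM, and without the filter Tgfbr2 was -0.0269 in E16.5 MM against E13.5 MM. With single libraries left out, Tgfb1 in E16.5 FP against E16.5 MM ranged from -0.17 to 0.14, Tgfb2 in E16.5 MM against E13.5 VM from -0.15 to 0.28, Tgfb3 in E13.5 MM against E13.5 VM from -0.12 to 0.0521, Tgfbr2 in E16.5 MM against E13.5 MM from -0.0191 to 0.0533, Tgfbr3 in E16.5 FP against E13.5 MM from -0.0875 to 0.0208 and Ltbp1 in E16.5 MM against E13.5 VM from -0.14 to 0.0166. The causes were not tested.

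Replicate numbers did not pair the samples: 17 of 50 same-number pairs had a correlation of deviations above 0.1 (lowest -0.45), and 3 of 25 samples matched their own number best. A replicate block added Tgfb1 in E16.5 MM against E13.5 VM (0.58) and dropped Tgfb2 in E16.5 FP against E13.5 VM (-0.57), and changed no other call. Without the filter, Ltbp4 in E16.5 FP against E13.5 SM lost its call (0.57) and Tgfb2 in E16.5 MM against E13.5 SM gained one (-0.59). Ltbp2 was filtered out of the fit to E13.5 VM and E13.5 SM alone, so that it gives no value there. Depth limits Ltbp2 in E13.5 VM and E13.5 SM, at 1 to 34 reads per library.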
